A study of Arabidopsis thaliana with 4 samples.

Results

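Transcripts of the mitochondrial genome were compared between Arabidopsis thaliana seedlings of the ecotype Col-0 that had shared the air of a plate with the leaf pathogen Pseudomonas syringae DC3000 and control seedlings whose plates held none of it. The members were chosen by identifier as the gene spots whose locus name begins with ATMG, the prefix of genes in the mitochondrial genome, and numbered 74 of 43803 gene spots, each with its own probe, for 67 of the 29030 loci on the array. The study holds 4 two-colour Agilent arrays in 1 group, and per the labels every array paired exposed RNA, labelled red (Cy5), with control RNA, labelled green (Cy3). Plants were 8 days old and exposed for 12 hours according to the series design, the sample labels state 12 days, and nothing in the labels says that the RNAs of the arrays came from separate plants. Every value below is a log2 ratio of exposed over control, so that a negative value means less signal in exposed plants. As the 4 arrays may be technical repeats, the p-values measure the spread between these arrays.

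Plant mitochondria keep a small genome that encodes part of the subunits of the respiratory complexes and of ATP synthase, proteins of cytochrome c maturation, some ribosomal proteins, ribosomal and transfer RNAs, and many open reading frames of unknown function. Most mitochondrial proteins are encoded in the nucleus, among them the phage-type RNA polymerases that transcribe the mitochondrial genome and the factors that splice and edit its transcripts. Most plant mitochondrial messenger RNAs carry no stable poly(A) tail, and a tail added to them marks them for decay. Per the labels' protocols the RNA was reverse transcribed from a T-rich primer, and which part of each mitochondrial transcript was primed was not tested. The array files and the gene table used here pair none of the 67 ATMG identifiers with a gene name, so each locus is given by its identifier and no product is named. In whole seedlings, fewer mitochondria and fewer transcripts per mitochondrion cannot be told apart. Genes of both shoot and root were above background, 5 of 5 fixed markers for each.

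Median signals of the gene spots were 292 to 362.5 scanner units for control RNA and 336 to 373 for exposed RNA on arrays 1 to 3. Array 4 read 575.5 and 1286 units, and 97.2% and 99.6% of its gene spots were well above background, against 75.1% to 78.9% on the others. Arrays 1 and 2 lay on 1 slide and arrays 3 and 4 on another, per the file headers, each slide having its own scan. Probes entered the test if at least 3 of the 4 arrays had them well above background in one and the same dye, and for loci with several such probes the brightest one gave the value. Of the 67 mitochondrial loci 62 were tested. The other 5, ATMG00680, ATMG00850, ATMG00880, ATMG01230 and ATMG01400, were well above background on 1 or 2 arrays and have no usable ratio. Among the tested loci ATMG00870 and ATMG00890 entered through the exposed dye only. Their control signal was well above background on 1 array. Of the 74 probes 63 were well above background in both dyes on all 4 arrays, no member spot was saturated, and none carried an outlier mark.

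Among the 62 tested mitochondrial loci, 4 fell and 1 rose in exposed plants at an adjusted p below 0.05 in limma, and 57 were not called. Of all 22690 tested genes 3.40% were called, 1.82% as lower and 1.58% as higher, beside which the 4 falls were 6.45% of the tested mitochondrial loci. The falls were of similar size, 1.32-fold to 1.39-fold, in ATMG00090, ATMG01170, ATMG00830 and ATMG01360. The rise was in ATMG00020, at 1.29-fold for its brightest probe. The median of all 62 loci was -0.055, against -0.0046 for all tested genes. By other scalings the split of called loci was 1 up and 0 down with median centring and 0 up and 5 down with the scanner software's log ratio, where the split over all genes was 166 up and 50 down and 580 up and 530 down, against 358 up and 414 down as reported and 672 up and 500 down with plain background subtraction. With the scanner software's log ratio 2 of the 5 loci were called again, ATMG00090 and ATMG01360, while ATMG01170 (adjusted p = 0.0706) and ATMG00830 (adjusted p = 0.0508) lost their calls, as did the rise of ATMG00020, and ATMG00210, ATMG00670 and ATMG01330 were called as lower. Leaving out array 1, array 2 or array 3, or counting arrays 1 to 3 as 1 sample, left 0 called loci in limma, with 16, 17, 16 and 6 loci (3580, 3873, 3494 and 1317 of all genes) at an unadjusted p below 0.05. Leaving out array 4 gave 3 up and 16 down, where 31.1% of all genes were called. With the slide as a fixed block, a setting chosen after seeing the data, none of the 5 loci was called (adjusted p between 0.0607 and 0.071), and 19 of the 62 loci had an unadjusted p below 0.05.

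ATMG00090 had the lowest p of the mitochondrial loci. Its control spots read 3830, 3105, 3377 and 3598 scanner units on arrays 1 to 4, and its exposed spots 2868, 2821, 2874 and 4111.5 units before normalization. The normalized log2 ratios were -0.59, -0.49, -0.35 and -0.48, all below 0, although the raw exposed signal of array 4 was the higher one, as it was for the median spot of that array. The mean was -0.48 ± 0.066 (SE, n = 4; limma adjusted p = 0.0287), a fall of 1.39-fold. A second, almost equally bright probe of the locus lay below 0 on every array too, with a mean of -0.33. Averaged over both probes the fall was -0.40 and was still called (adjusted p = 0.0366).

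ATMG01170 read -0.34, -0.44, -0.39 and -0.52, with a mean of -0.42 ± 0.063 (SE, n = 4; limma adjusted p = 0.031). The 4 arrays lay within a narrow range, with array 4 the lowest. ATMG00830 read -0.33, -0.37, -0.34 and -0.64, with a mean of -0.42 ± 0.076 (SE, n = 4; limma adjusted p = 0.0438). Arrays 1 to 3 were close together and array 4 was well below them, and without array 4 the mean was -0.35. ATMG01360 read -0.40, -0.29, -0.53 and -0.37, with a mean of -0.40 ± 0.066 (SE, n = 4; limma adjusted p = 0.0394). Here array 3 was the lowest and array 4 lay among the others. Each of these 3 loci was read by a single probe. The slide means of the 4 falls lay between -0.54 and -0.34 for the first slide and between -0.49 and -0.42 for the second.

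**Figure D1:**
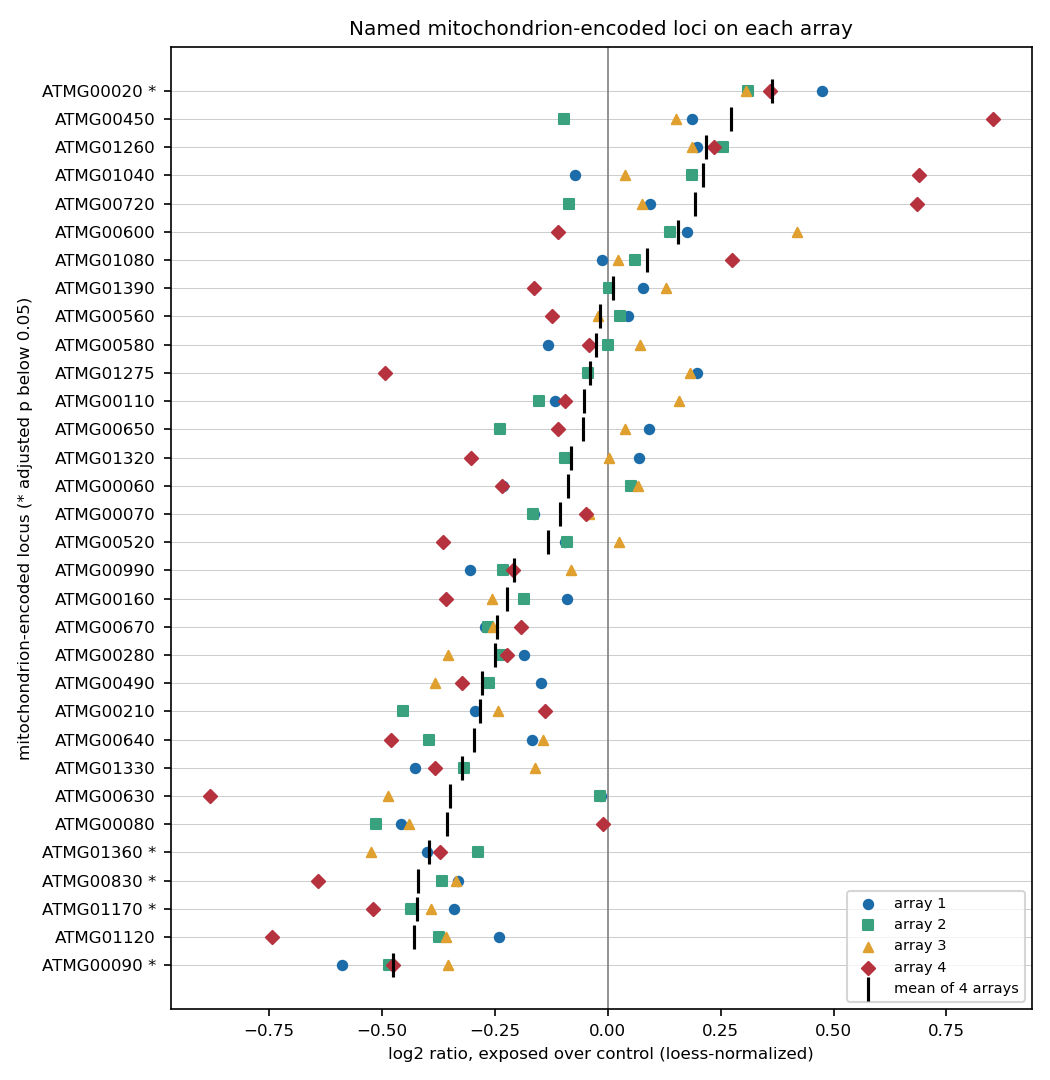
Log2 ratio of exposed over control (horizontal axis) for the 32 named mitochondrion-encoded loci (vertical axis, ordered by mean), with 1 symbol per array and a black bar at the mean of 4 arrays. The 4 called falls, ATMG00090, ATMG01170, ATMG00830 and ATMG01360, are among the 5 lowest loci with the uncalled ATMG01120 and have all arrays below 0. The called rise ATMG00020 at the top has all arrays above 0. Array 4 lies far from the other arrays in several uncalled loci and in the called ATMG00830.

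ATMG00020 was read by 3 probes that did not give the same value. The brightest had control signals of 147831, 149290, 170685 and 143109 scanner units and exposed signals of 307590, 309487, 324918 and 349670 units on arrays 1 to 4. Its normalized ratios were 0.47, 0.31, 0.31 and 0.36, with a mean of 0.36 ± 0.063 (SE, n = 4; limma adjusted p = 0.0414). A second probe, nearly as bright, read 0.16, 0.04, -0.04 and -0.06 with a mean of 0.023, so that its arrays lay on both sides of 0. The third and much dimmer probe had a mean of 0.099 and lay below 0 on array 4 only. With the mean of the 3 probes the ratio was 0.16 (adjusted p = 0.175), with the scanner software's log ratio it was also 0.16 (adjusted p = 0.141), and with median centring 0.77. The rise of this locus therefore rests on 1 of its 3 probes.

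Of the 5 other loci read by several probes, ATMG00090 is given above. ATMG00580 read -0.025 by its bright probe and -0.25 by its dimmer one, which was below 0 on all 4 arrays. ATMG00060 read -0.087 and -0.35, the second value including -0.86 on array 4. ATMG00690 read -0.053 and -0.11, and ATMG01040, a dim locus, 0.21 and 0.11. The probes of each of these 5 loci had means of the same sign, but the dimmer probes of ATMG00580, ATMG00060 and ATMG00690 lay further below 0.

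**Figure D2:**
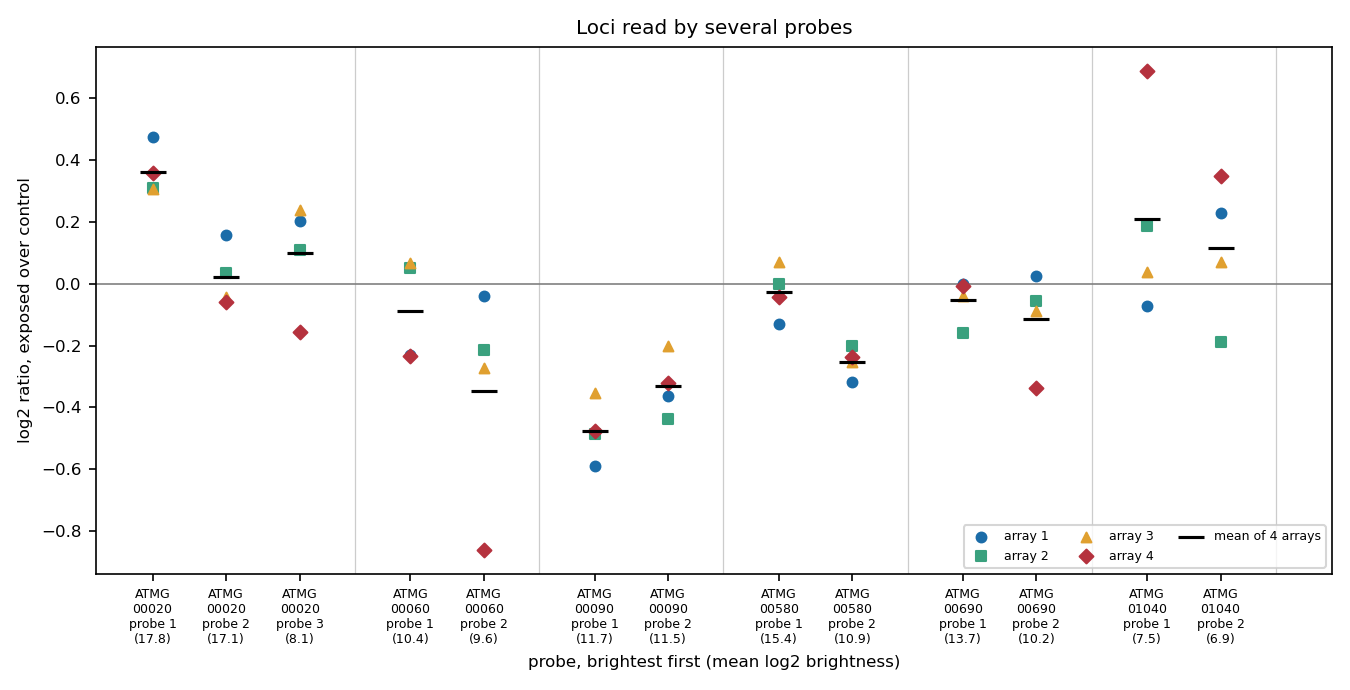
Log2 ratio of exposed over control (vertical axis) for each probe of the 6 loci read by several probes, brightest probe first, with the mean log2 brightness in brackets, 1 symbol per array and a black bar at the mean. The 3 probes of ATMG00020 have means of 0.36, 0.023 and 0.099, whereas both probes of ATMG00090 lie below 0 on every array.

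A further 8 loci with means from -0.43 to -0.25 missed the threshold with adjusted p between 0.0612 and 0.0927 in limma. ATMG01120 read -0.24, -0.37, -0.36 and -0.74 on arrays 1 to 4 (mean -0.43, adjusted p = 0.062), ATMG00080 -0.46, -0.51, -0.44 and -0.01 (mean -0.36, adjusted p = 0.0927), and ATMG01330 -0.43, -0.32, -0.16 and -0.38 (mean -0.32, adjusted p = 0.0612). In the first array 4 was lowest, in the second it was near 0 while the others were together, and in the third array 3 was nearest to 0. The means were -0.30 for ATMG00640, -0.28 for ATMG00210, -0.28 for ATMG00490, -0.25 for ATMG00280 and -0.25 for ATMG00670, each below 0 on all 4 arrays. Their adjusted p lay between 0.0737 and 0.0918 in limma. ATMG00280 was among the brightest mitochondrial probes, with control signals of 45362.8 to 58320.1 units. Its raw exposed signals were higher than its control signals on all 4 arrays. With median centring this locus was at -0.0012 and with a wider loess span at -0.15. ATMG00670 was the most even of these 8, from -0.27 to -0.19. ATMG00630 was at -0.35, but read -0.02 on arrays 1 and 2 and -0.49 and -0.88 on arrays 3 and 4, the arrays of the second slide.

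Of the other loci named by the fixed rule, ATMG00160 (-0.22) and ATMG00990 (-0.21) were below 0 on all arrays and not called. ATMG00520 was at -0.13, ATMG00070 at -0.10, ATMG00060 at -0.087, ATMG01320 at -0.082, ATMG00650 at -0.056, ATMG00110 at -0.052 and ATMG01275 at -0.040. ATMG00580, ATMG00560 and ATMG01390 were the nearest to 0 among them, at -0.025, -0.018 and 0.011, with arrays on both sides of 0. ATMG01390 was one of the brightest probes, at 70837.7 to 92664.2 units in the control channel, and its arrays spanned -0.16 to 0.13. ATMG01080 was at 0.086, with array 4 at 0.28. The highest uncalled loci were all dim. ATMG01260 read 0.20, 0.26, 0.19 and 0.24 (mean 0.22, adjusted p = 0.089), the only one of them above 0 on every array. ATMG00450 (0.27), ATMG01040 (0.21) and ATMG00720 (0.19) had array 4 at 0.85, 0.69 and 0.68 and arrays 1 to 3 between -0.10 and 0.19. ATMG00600 was at 0.16, with array 4 at -0.11.

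Falls lay among the loci with bright spots. When the 62 loci were divided by brightness into 31 and 31, the dimmest of the brighter group having a log2 brightness of 9.06, 27 of the 31 brighter loci were below 0, with a median of -0.22, and all 4 falls were among them. The 31 dimmer loci had a median of 0.023 and 14 below 0, and none was called. They include ATMG00870 and ATMG00890, which entered the test through the exposed dye only. Of all 14649 tested genes at or above the same brightness 54.8% were below 0, with a median of -0.020, and 2.43% were called as lower. Of the 8041 genes below it 44.1% were below 0, with a median of 0.027, and 0.721% were called as lower, so that the dimmer loci were near their background. For the brighter 31 loci the array medians were -0.15, -0.17, -0.14 and -0.22, and for the dimmer 31 they were 0.023, -0.019, 0.058 and -0.0014. Over the 62 loci brightness and ratio had r = -0.26 and Spearman's rho = -0.51, a description over loci that share the 4 arrays and the normalization. Spot brightness depends on the probe as well as on the transcript, and its part in the ratios was not tested. The brighter 31 loci kept a median below 0 under every processing tried, from -0.25 with the scanner software's log ratio to -0.15 with median centring, with 28 and 23 of them below 0 under these settings.

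**Figure D3:**
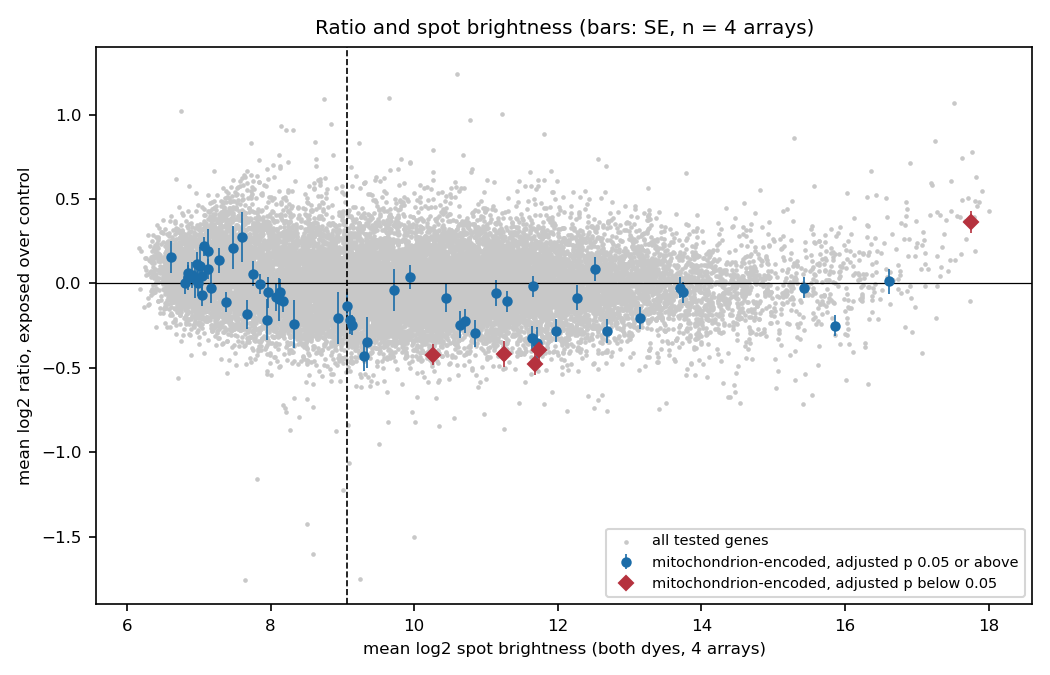
Mean log2 ratio of exposed over control (vertical axis) against mean log2 spot brightness over both dyes and 4 arrays (horizontal axis) for all 22690 tested genes in grey and the 62 mitochondrion-encoded loci in colour with SE bars (n = 4). The dashed line divides the loci at 9.06, with 27 of 31 loci below 0 to its right and 14 of 31 to its left.

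The loci that kept 1 sign on all 4 arrays were 23 below 0 and 4 above 0, or 27 of 62. Of all tested genes 20.7% were below 0 and 17.2% above 0 on all 4 arrays. Of the 23, 19 were among the brighter 31. Of all genes at or above the same brightness 3605 of 14649 were below 0 on all 4 arrays, and of the dimmer genes 1084 of 8041. Pairs of arrays among the first 3 had r = 0.66 to 0.75 over the 62 loci, and pairs with array 4 had r = 0.36 to 0.39, where all genes gave 0.65 to 0.78 and 0.22 to 0.29. These correlations are across loci within single arrays and describe only how alike the arrays were. The median SD of a locus over the arrays was 0.12 among the brighter and 0.14 among the dimmer loci. Array 4 was the highest or the lowest of the 4 arrays in 19 of 31 brighter and 23 of 31 dimmer loci. Any 1 of 4 arrays is often an extreme by chance, and the same count was not made over all genes. These counts therefore describe no trait of the mitochondrial loci.

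The nuclear genome carries a large insertion of mitochondrial DNA on chromosome 2, whose copies can be nearly identical to the genes in the mitochondrion. The probe sequences were not used here, so which probes read both copies was not tested. In the range of locus numbers from AT2G07660 to AT2G07840, where this insertion lies, 81 loci were tested, of which 5 fell, 0 rose and 76 had no call. The 5 falls were 6.17%, against 1.82% of all genes. The number that fell was 0 without array 1, array 2 or array 3, with arrays 1 to 3 as 1 sample or with the slide as a fixed block. It was 2 with median centring or no filter on dim probes, 17 with arrays scaled to one spread and 25 without array 4. Over all genes 50 fell with median centring, 136 with no filter, 1927 with scaled arrays and 3234 without array 4, against 414 as reported. The falls were in AT2G07719 (-0.82 ± 0.086 SE), AT2G07739 (-0.67 ± 0.061 SE), AT2G07695 (-0.42 ± 0.080 SE), AT2G07671 (-0.41 ± 0.070 SE) and AT2G07722 (-0.36 ± 0.065 SE), with n = 4 and limma adjusted p between 0.0127 and 0.0471. AT2G07719 was lowest on array 3 and read -0.55 on array 4, its value nearest to 0, and AT2G07739 read -0.67, -0.58, -0.70 and -0.72. Both means lay further from 0 than that of any mitochondrial locus. The gene table gives no symbol for these 5. The range also holds ordinary nuclear genes, such as the replication gene MCM5, at 0.059, and the transporter gene ABCC13, at -0.33, neither of them called. The median of the range was -0.073 over all 81 loci and -0.16 over the 37 at or above a brightness of 9.06.

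Many genes of the other organelle fell. Of 66 tested chloroplast-encoded genes 36 were called as lower and 0 as higher, and 30 had no call. The falls were 54.5% of these genes, against 1.82% of all tested genes. The median log2 brightness of the chloroplast-encoded genes was 14.7, against 9.91 for all tested genes. Their median ratio was -0.39, and on single arrays it lay between -0.43 and -0.36. Median centring gave 4 up and 3 down for them, and loess with a wider span 4 up and 30 down. Without array 1, array 2 or array 3, with arrays 1 to 3 as 1 sample or with the slide as a fixed block 0 chloroplast-encoded genes were called. Without array 4 there were 5 up and 49 down, where 31.1% of all genes were called. In the mitochondrion the lowest locus was at -0.48, and in the chloroplast the values ran from -0.74 to 0.40. The difference between both groups was not tested, since their members are not replicates.

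Nuclear genes of the same respiratory chain that had a symbol in the gene table were mostly near 0. Of the listed genes these were 8 of 12 in complex I and 6 of 6 in complex II. In complex III with cytochrome c they were 3 of 10, and in complex IV and ATP synthase 4 of 9 each. The others were left out. None of 8 complex I genes was called (median -0.057), with GAMMA CAL1, of the carbonic anhydrase-like domain of complex I, at 0.25 (adjusted p = 0.103). None of 6 genes of complex II, the succinate dehydrogenase complex, was called (median 0.016). Its lowest p was that of SDH1-1, the gene of its flavoprotein subunit, at -0.24 (adjusted p = 0.079). None of the 3 genes counted for complex III with cytochrome c was called (median -0.10). Among them MPPBETA, a core subunit that also cleaves mitochondrial presequences, was at -0.27 (adjusted p = 0.0635). The 4 complex IV genes had a median of 0.0057, with the assembly gene COX10 at 0.21 (adjusted p = 0.133), and the 4 ATP synthase genes a median of 0.0045, with the gamma subunit gene ATP3 at -0.12 (adjusted p = 0.276), and none was called.

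Of 14 listed nuclear genes of mitochondrial transcription and RNA processing, only the 8 with a symbol in the gene table were counted. All 8 had a mean below 0, from -0.42 to -0.043, with a median of -0.20, and none was called. Of all tested genes 51.0% had a mean below 0. The medians of the 8 on arrays 1 to 4 were -0.21, -0.092, -0.24 and -0.42, lowest on array 4. PMH2, a mitochondrial RNA helicase gene, had the lowest p, with -0.26, -0.31, -0.24 and -0.45 on arrays 1 to 4 (mean -0.32, adjusted p = 0.0564). Only 3 of the 8 were below 0 on all 4 arrays, as were 20.7% of all tested genes. Among 5 tested genes of alternative oxidases and uncoupling proteins, which let electron transport run with less ATP made, AOX1D fell 1.82-fold, with -0.98, -0.95, -1.09 and -0.45, and the other 4 were not called. AOX1A, the main stress-responsive alternative oxidase gene, read -0.21, -0.25, -0.14 and -0.42 (mean -0.25, adjusted p = 0.095). The median of that list was -0.12.

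**Figure D4:**
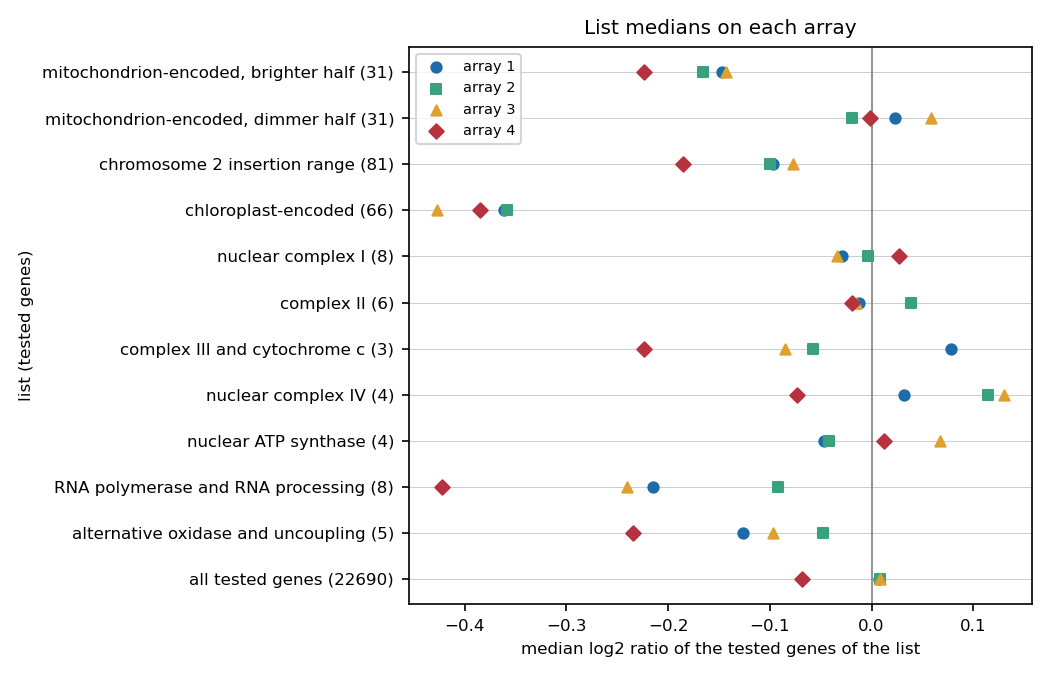
Median log2 ratio of exposed over control (horizontal axis) of each list on each of the 4 arrays, with the number of tested genes in brackets. The respiratory, RNA processing and alternative oxidase lists hold only genes with a symbol in the gene table. The brighter 31 mitochondrial loci lie between -0.22 and -0.14, the dimmer 31 between -0.019 and 0.058, and the chloroplast-encoded genes between -0.43 and -0.36.

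**Figure D5:**
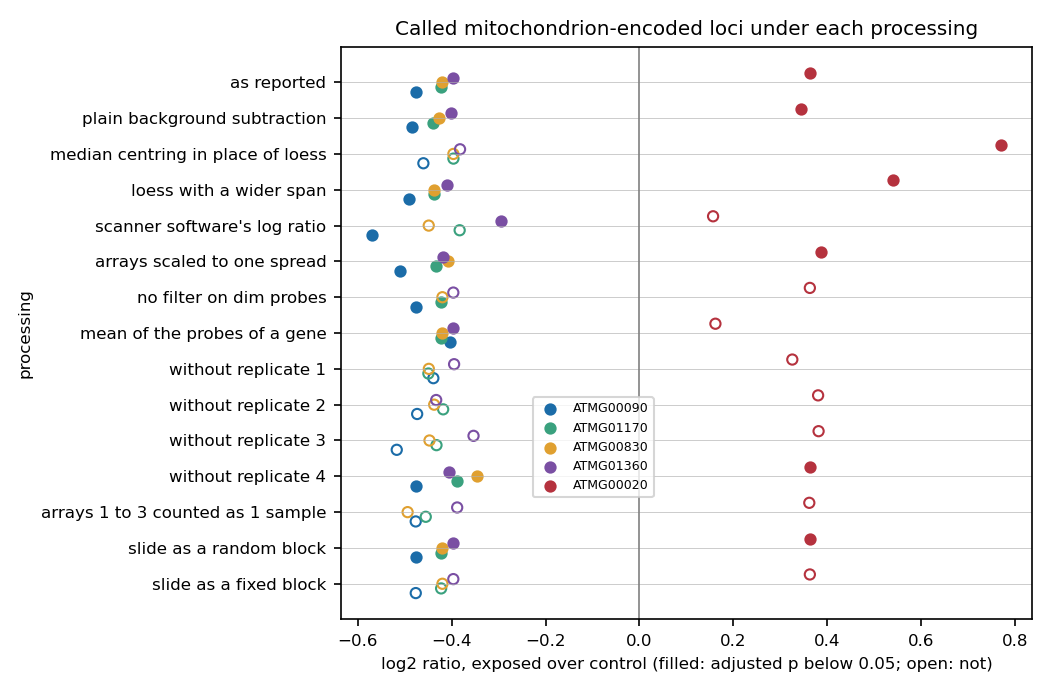
Log2 ratio of exposed over control (horizontal axis) of the 5 called mitochondrion-encoded loci under each processing (vertical axis), with filled circles where the adjusted p was below 0.05 and open circles where it was not. The 4 falls keep their sign in every row and stay between -0.57 and -0.30, while ATMG00020 moves between 0.16 and 0.77. Rows that leave out, pool, scale or block arrays, or drop the filter on dim probes, could not change a sign.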

How the data were processed

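Each deposited scanner file gives the linear intensity of every spot with local background and quality marks, and the software's own log ratio as a log10 value, per the file headers. They come from Agilent Feature Extraction, version 11.5.1.1 per the file headers and 8.5.1.1 per the submitters' processing notes. The labels call the deposited series matrix a log2 ratio of exposed over control. Against the scanner columns, within 0.001, its column for array 1 equalled log2 of processed Cy5 over Cy3 at 45220 of 45220 spots, whereas the columns for arrays 2 to 4 matched log2 of (Cy3 error / Cy5 signal) at 45219, 45220 and 45220 spots. The column medians were -0.042, -3.17, -3.17 and -3.19. Centring or direction beyond these formulas is unknown, and the matrix was not used.

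Median spot signals were corrected with normexp (offset 50) and loess-normalized within arrays (span 0.3) in R 4.3.3 with limma 3.58.1, with control and outlier spots at weight 0. Spots of a probe were averaged. Log2 ratios were fitted against 0 with lmFit and eBayes, two-sided, with Benjamini-Hochberg adjustment over 22690 genes and a threshold of 0.05. The fit was tested on simulated data whose noise was drawn independently for each array. That simulation cannot show how the fit behaves if the arrays are technical repeats. No dye swap was made, so dye preference and exposure cannot be told apart. Array signal limits the precision of dim probes. The rule for named loci was a list of 41 identifiers chosen for products of the mitochondrial genome (22 on the array, all tested), called loci, and the 5 highest and lowest of the rest. The planned grouping by product was dropped, as no source here pairs the identifiers with products. Nuclear list members without a symbol in the TAIR10.1 gene table were left out. Members and lists were chosen with earlier results of these data known.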

Additional observations from a re-analysis of the deposited data

Results flagged for a closer look

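On 7 of the 62 tested mitochondrion-encoded loci a single array lay far from the other 3, a mark that chance alone gives to about 1 group in 20. Array 4 was the distant one in 6. The mark was not counted over all genes, so the number cannot be called particular to these loci. Over all genes too, pairs with array 4 had r = 0.22 to 0.29, against 0.65 to 0.78 for the other pairs. ATMG00830, a called fall, was at -0.64 on array 4 against -0.37 to -0.33 on the others. ATMG00080 was at -0.011 against -0.51 to -0.44. ATMG00890, which entered the test through the exposed dye only, was at 0.53 against -0.049 to -0.020, and ATMG01000 at 0.12 against -0.16 to -0.14. ATMG01100 was at -0.59 against 0.023 to 0.13, and ATMG01130 at -0.82 against -0.066 to -0.027. For ATMG01180 array 3 was the distant one, at -0.25 against -0.067 to -0.036.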

How the results depend on the processing

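The processing was varied in 14 ways, of which slide as a fixed block was chosen after seeing the data. The 5 called loci kept their direction in all 14. Each had the same sign on every array, so leaving out, pooling or scaling arrays could not change it. The slide blocks and the missing filter on dim probes left their ratios as reported. The kept direction is informative only for the settings that changed background, normalization, log ratio or probe rule. The count of called loci, 5 as reported, was 1 with median centring, 14 with arrays scaled to one spread, 2 with no filter on dim probes, 0 with arrays 1 to 3 as 1 sample, 0 with slide as a fixed block, and 0 to 19 when 1 array was left out. Over all genes the counts were 216, 3842, 292, 0, 16 and 0 to 7054 in that order, against 772, and 1172 with plain background subtraction. At an unadjusted p below 0.05 limma had 18 of the loci (5629 of all genes) as reported, 16, 17 and 16 (3580, 3873 and 3494) without array 1, 2 or 3, 6 (1317) with arrays 1 to 3 as 1 sample and 19 (5832) with the fixed block. Slide as a random block left the same 5 loci called. The median of the loci was -0.0033 with median centring and -0.12 with the scanner software's log ratio.

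Uncalled loci near 0 changed sign. ATMG01390 was at -0.00071 with plain subtraction, -0.060 with the software's log ratio, -0.047 with arrays 1 to 3 as 1 sample, and -0.028 to 0.069 with 1 array left out. With median centring ATMG00110 was at 0.036, ATMG00580 at 0.19, ATMG01275 at 0.024 and ATMG01320 at 0.0068. ATMG00580 was at 0.052 with a wider span and -0.058 to 0.010 with 1 array left out. ATMG00560 was at 0.021 with the software's log ratio, 0.0012 with scaled arrays and -0.039 to 0.017 with 1 array left out. ATMG01275 was at 0.031 with scaled arrays and -0.12 to 0.11 with 1 array left out, and ATMG00650 at -0.104 to 0.0057. The cause was not tested. No paired analysis was possible because there is no second group of arrays to pair with, and the tested log2 ratios already pair exposed with control RNA within each array.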
